A study of Mus musculus with 4 samples.

Results

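Chondrocytes from presumptive knee joints of E14.5 mouse embryos were compared between a library from embryos labelled as lacking the glucose transporter genes Glut1 and Glut3 (DCKO) and a library from control embryos. The cells were selected by their own UMIs (unique molecular identifiers, each counting 1 captured mRNA molecule): at least 3 UMIs of Col2a1 and at least 2 UMIs of Matn1 and Acan together. This selected 12523 of the 20610 cells kept in both libraries, in a series of 45768 cell barcodes. There were 5454 selected cells among 9305 in the control library and 7069 among 11305 in the library labelled DCKO.

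The study, by its title on Tgfβ signaling and glycolysis in joint tissues, sequenced single cells of knee regions cut from hindlimb cartilage of mouse embryos. It made 4 libraries with a 3' kit, 1 for each condition: a control at E13.5, a control at E14.5, and at E14.5 the genotypes Prx1Cre;Glut1f/f;Glut3f/+ and Prx1cre;Glut1f/f;Glut3f/f, the last named DCKO. The controls are titled WT and labelled as having no Cre, and a supplementary caption calls the E13.5 and E14.5 joint primordia wild-type. Their labels do not say whether the controls carry floxed alleles. Prx1Cre recombines in limb bud mesenchyme, from which the chondrocytes, fibroblasts and tendon cells of the limb derive, while muscle, blood and blood vessel cells have other origins. The number of embryos pooled in each library is not stated. The methods give a lower limit of 3 embryos of a genotype for the study's experiments in general. The labels call all 4 samples interzone, the tissue of the forming joint, after the region dissected. In the selected cells the interzone gene Gdf5 stood at 19.9 CPM, its UMIs scaled to a library total of 1e+06, in the E14.5 control and 9.88 CPM in the library labelled DCKO, and the cells are described here by the genes that selected them.

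The selected cells held 54236243 UMIs in the E14.5 control and 67386491 in the library labelled DCKO. The median cell had 8549.5 and 8026 UMIs from 2814.5 and 2562 genes, with 2.20% and 2.16% of UMIs from the mitochondrial genome. At the edge of the selection, among control cells with enough Col2a1, 424 had 1 UMI of Matn1 and Acan together and stayed outside, and 286 had 2 and entered. In the library labelled DCKO these numbers were 582 and 474. The same selection took 2908 cells of the E13.5 control and 5969 of the library with the label Prx1Cre;Glut1f/f;Glut3f/+, whose levels are given for comparison. Where 4 levels follow each other, they are in the order E13.5 control, E14.5 control, library with the label Prx1Cre;Glut1f/f;Glut3f/+ and library labelled DCKO. The libraries shared few cell barcodes, 25 between the E14.5 control and the library labelled DCKO.

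The deleted genes came first. Slc2a1, the gene of Glut1 (ENSMUSG00000028645, chr4:119108711-119137983 of GRCm38), stood at 82.0, 79.7, 456 and 496 CPM. It was thus higher, not lower, in both libraries labelled as lacking it. Slc2a3, the gene of Glut3 (ENSMUSG00000003153, chr6:122727809-122801640), stood at 4.63, 2.84, 4.17 and 1.63 CPM. Its UMIs were few, 154 in the E14.5 control and 110 in the library labelled DCKO. The Slc2a1 counts did not show the loss that the label names. For that reason the libraries with mutant labels, called mutant libraries for short, are named by their labels throughout. The kit counts the 3' ends of transcripts, and the sources used here do not give the exons that the loxP sites flank. A transcript that lacks an inner exon and keeps its 3' end would be counted like a whole one, so these UMIs do not check the deletion.

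The libraries also differed in sex. Xist, which is transcribed in female cells, stood at 825, 0.184, 973 and 849.7 CPM. The Y-linked Ddx3y stood at 20.4 and 90.5 CPM in the controls and had no UMI in either mutant library, which in the library labelled DCKO allows up to 0.0445 CPM when 3 counts are taken as the floor. Of the selected control cells, 73.9% held Y-linked UMIs without Xist, and 96.6% of the cells labelled DCKO held Xist without Y-linked UMIs. Sex and genotype therefore cannot be told apart between these libraries, and the comparison was limited to autosomal genes. The E13.5 control held both kinds of cells, which are compared below.

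Cartilage of the embryo grows without blood vessels, and its chondrocytes take up glucose both for glycolysis and for the sugar chains of the proteoglycans they secrete. Cells that run short of amino acids or glucose, or whose endoplasmic reticulum (ER) holds unfolded protein, slow translation through phosphorylated eIF2α, while translation of the transcription factor ATF4 increases. ATF4 drives genes of amino acid synthesis, import and tRNA charging, and the ER's own sensors, ATF6 and the XBP1 branch, drive chaperones and folding enzymes that secretory cells such as chondrocytes need.

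In the library labelled DCKO, genes of the amino acid response and of ER protein folding stood higher than in the E14.5 control. Genes of cholesterol synthesis and mitosis stood lower, as did a few genes each of Bmp signaling, Tgfβ signaling and cartilage matrix, and glycolysis genes differed by less. How many of the lower genes were past 1.5-fold depended on the scaling. Nupr1, a small nuclear stress protein, had the highest ratio among genes of a mean CPM of at least 20, with 5.27, 9.72, 78.0 and 184 CPM. At that minimum, and embryonic hemoglobin aside, the secreted factor C1qtnf3 had the lowest ratio, with 17.6, 178, 64.0 and 27.0 CPM. Because each genotype had 1 library, no test, p-value or standard error between genotypes could be had, and the values describe these libraries. The log2 ratio of the library labelled DCKO to the E14.5 control is given with its 95% interval, exact for the counts, and these intervals cover counting error only. A log2 ratio of 1 means a 2-fold higher level.

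A gene was called measured when it was autosomal and its CPM averaged over both libraries was at least 20, which held for 5344 genes. Of these, 76 were past 1.5-fold higher (1.42%) and 243 past 1.5-fold lower (4.55%) in the library labelled DCKO, 319 either way (5.97%). The 95% interval lay wholly beyond that fold for 64 of the higher and 158 of the lower genes. Past 2-fold there were 33 genes each way (0.618% each). In the library with the label Prx1Cre;Glut1f/f;Glut3f/+, compared with the same control, which both comparisons thus share, 46 of these genes were past 1.5-fold higher (0.861%) and 43 lower (0.805%). The excess of lower genes depended on the scaling. With CPM the median log2 ratio of all measured genes was -0.13, and with TMM factors it was 0.04, when 134 genes were past 1.5-fold higher (2.51%) and 88 lower (1.65%) of 5337. Ribosomal protein genes summed to 247317 CPM in the control and 290011 CPM in the library labelled DCKO. List medians are therefore read against -0.13, the median of all genes. The 10th and 90th percentiles of all genes were -0.45 and 0.16.

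**Figure D1:**
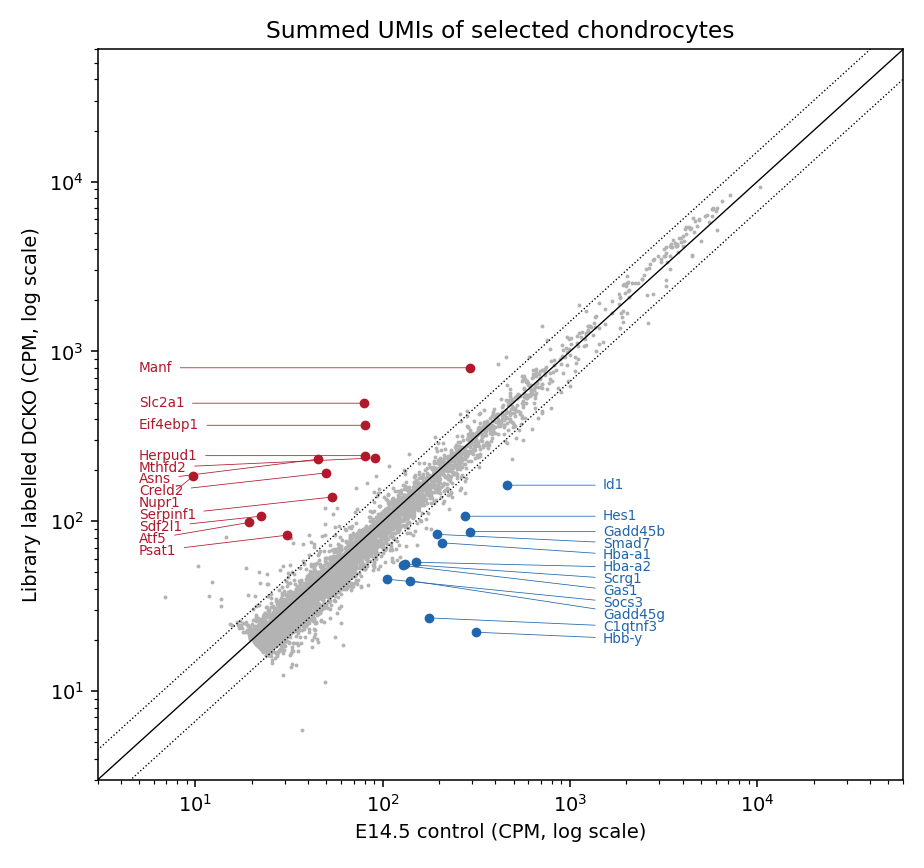
Level of each measured gene, as CPM over the summed UMIs of selected chondrocytes, in the E14.5 control (horizontal, log scale) and the library labelled DCKO (vertical, log scale). The solid line marks equal levels, the dotted lines 1.5-fold, red points the 12 highest and blue points the 12 lowest ratios among genes of at least 50 CPM averaged over both, with Nupr1 farthest above and Hbb-y farthest below the line.

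Glucose transporters and genes that respond to glucose inside the cell differed in both directions. Of the 11 transporter genes listed, only Slc2a1 was measured, with a log2 ratio of 2.64 (2.59 to 2.68). Slc2a3 was below the minimum, and its ratio was -0.80 (-1.17 to -0.44). The ratio of Slc2a3 in the library with the label Prx1Cre;Glut1f/f;Glut3f/+, which keeps 1 Glut3 allele by its label, was 0.55 to the same control. Of the other members, Slc2a6 stood at 0.0922 CPM in the control and 1.05 CPM in the library labelled DCKO, from 5 and 71 UMIs. Slc2a4, the insulin-responsive transporter Glut4, stood at 1.92 and 3.28 CPM. Slc2a8 and Slc2a10 were within 1.5-fold, with log2 ratios of 0.03 and 0.17. Autosomal members with at least 10 UMIs over both libraries numbered 9. Of these, 3 were past 1.5-fold higher and 2 lower, against 7.15% and 16.5% of all such genes.

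Txnip and Arrdc4 encode arrestin-like proteins that lower glucose uptake. Their transcription depends on glucose phosphates through the factors MondoA and ChREBP, so they are widely used as readouts of glucose in the cell. Txnip stood at 12.5, 23.1, 1.86 and 2.18 CPM. It was thus low in both mutant libraries, with a log2 ratio of -3.41 (-3.66 to -3.16) in the library labelled DCKO. Arrdc4 stood at 10.1, 10.8, 1.74 and 1.90 CPM, a log2 ratio of -2.51 (-2.80 to -2.23). Both genes were below the minimum CPM, with 1255 and 588 UMIs in the control and 147 and 128 in the library labelled DCKO. Both genes stood higher in each control than in either mutant library.

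Like the other lists, that of ATF4 targets was chosen with earlier results of these data known. It held 31 genes, ATF4 itself included, of which 20 were measured. Of these, 16 were past 1.5-fold higher in the library labelled DCKO and none lower, against 1.42% of all genes past it upward. The median log2 ratio was 1.32, which is 1.45 above the median of all genes. In the library with the label Prx1Cre;Glut1f/f;Glut3f/+ the median of the same genes was 0.75, with 12 past 1.5-fold higher, against 0.861% of all genes. Summed over all members, the list reached 1228, 1466, 2091 and 3064 CPM.

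Enzymes that make amino acids and load their carbon onto folate were among the higher genes. Asns, asparagine synthetase, stood at 42.0, 45.0, 129 and 232 CPM, a log2 ratio of 2.37 (2.31 to 2.43). The pathway from glycolysis to serine runs through Phgdh, Psat1 and Psph. All 3 of its enzymes were higher, with log2 ratios of 0.73, 1.42 and 1.52. Psat1 stood at 31.9, 31.0, 55.2 and 82.9 CPM. In the mitochondria, Shmt2 and Mthfd2 pass a carbon of serine to folate. Mthfd2 stood at 76.8, 91.4, 152 and 236 CPM, with a ratio of 1.37 (1.32 to 1.42), and Shmt2 at 49.2 CPM in the control and 96.7 CPM in the library labelled DCKO. Aldh1l2, the next enzyme of that folate pathway, was below the minimum, with 4.50 and 33.5 CPM. Cth, which makes cysteine from cystathionine, stood at 10.1, 6.91, 19.8 and 35.8 CPM, a log2 ratio of 2.37 (2.22 to 2.53). Pck2, the mitochondrial enzyme that makes phosphoenolpyruvate, had a ratio of 1.31 (1.23 to 1.39).

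Amino acid importers stood higher as well. Slc7a5 and Slc3a2 form the transporter of large neutral amino acids, and their log2 ratios were 1.84 (1.72 to 1.97) and 0.69 (0.64 to 0.74). Slc7a5 stood at 9.20, 12.3, 28.1 and 44.1 CPM. The arginine and lysine importer Slc7a1 had a ratio of 0.79. Slc7a3, of the same family, and the glycine transporter Slc6a9 were below the minimum. Slc7a3 stood at 1.66 CPM in the control and 25.005 CPM in the library labelled DCKO, and Slc6a9 at 2.88 and 18.6 CPM.

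Transcription factors and translation regulators of the list differed among themselves. The mRNA of Atf4, whose product is controlled at translation, stood at 237, 338, 306 and 352 CPM, a ratio of 0.06 (0.03 to 0.09). Its relative Atf5 stood at 20.0, 19.4, 56.2 and 98.6 CPM, a ratio of 2.34 (2.25 to 2.44). Eif4ebp1 encodes 4E-BP1, which holds back cap-dependent translation. It stood at 68.8, 80.3, 239 and 368 CPM, a ratio of 2.20 (2.15 to 2.24). Ddit3, the gene of the stress factor CHOP, had a ratio of 0.81 (0.71 to 0.91), and Cebpg, which pairs with ATF4 on DNA, 0.52 (0.45 to 0.59). The 3 measured members nearest to 0 were Atf4, Ppp1r15a, which restores translation by removing phosphate from eIF2α, at 0.06 (0.01 to 0.10), and Cebpb at -0.08 (-0.14 to -0.02). Nupr1 (ENSMUSG00000030717, chr7:126623249-126630861) had the highest ratio among measured members, 4.25 (4.12 to 4.37). Secreted products of the response were below the minimum. Gdf15 stood at 0.387 CPM in the control and 7.75 CPM in the library labelled DCKO, Fgf21 at 0.793 and 3.52 CPM and Stc2 at 1.99 and 21.1 CPM. With members of at least 10 UMIs taken in place of the minimum, 30 autosomal ATF4 list genes entered and 26 were past 1.5-fold higher, against 1157 of 16182 genes (7.15%).

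**Figure D2:**
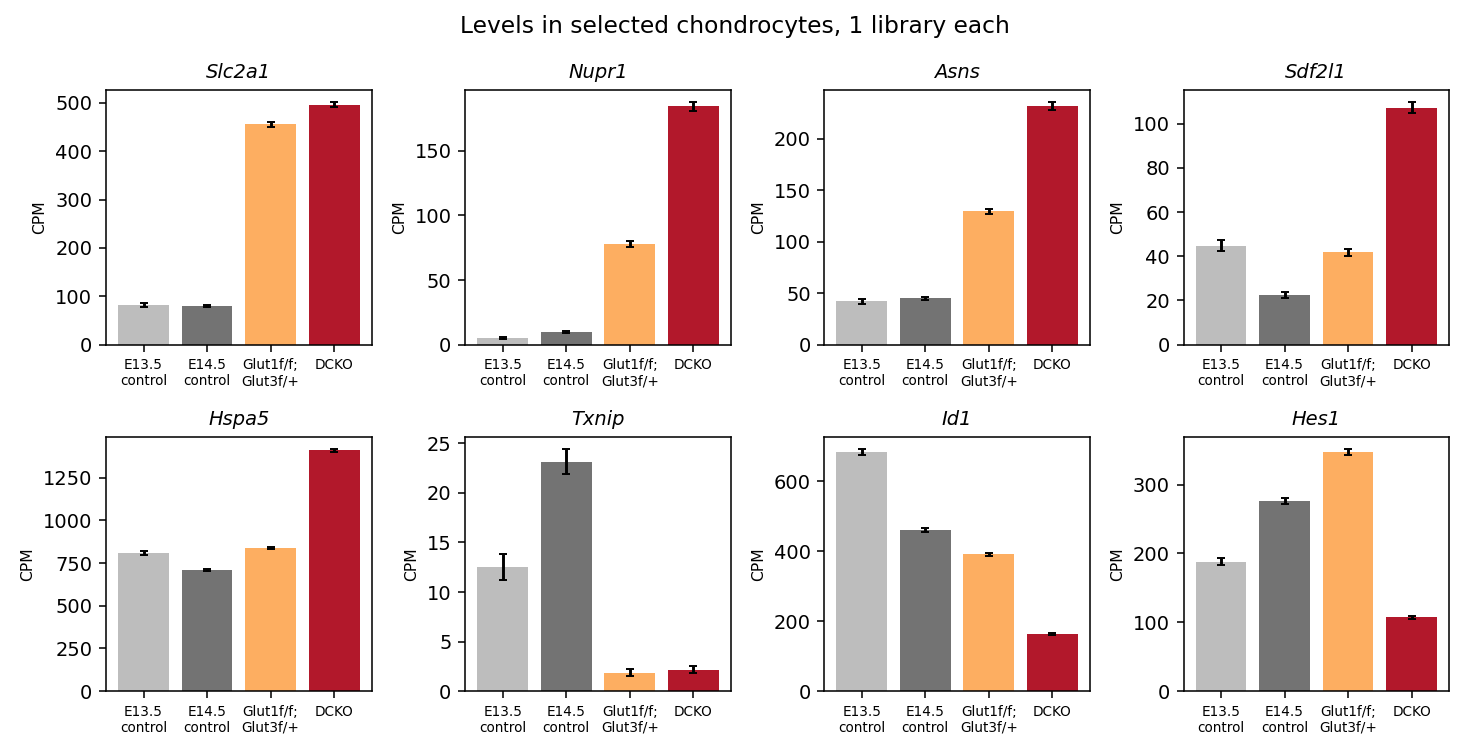
Levels of 8 genes in selected chondrocytes of each library, in CPM from 0 upward, with bars for the library and error bars for the 95% Poisson interval of its count. Slc2a1, Nupr1 and Asns are higher in both mutant libraries, Sdf2l1 and Hspa5 are highest in the library labelled DCKO, Txnip is low in both mutant libraries, and Id1 and Hes1 are lowest in the library labelled DCKO.

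Aminoacyl-tRNA synthetases load amino acids onto tRNAs. Of 18 cytosolic synthetase genes 17 were measured, 7 were past 1.5-fold higher, against 1.42% of all genes, and none lower, and the median log2 ratio was 0.46. The 4 highest were Sars, Gars, Aars and Mars, which load serine, glycine, alanine and methionine. Sars stood at 65.3, 72.3, 139 and 158 CPM, a ratio of 1.12 (1.07 to 1.18), and Gars at 68.3, 82.7, 142 and 169 CPM, a ratio of 1.03 (0.98 to 1.08). Aars and Mars had ratios of 0.97 (0.87 to 1.06) and 0.94 (0.84 to 1.05). At the other end, Dars, for aspartate, had a ratio of -0.25 (-0.33 to -0.17) and Rars, for arginine, -0.11 (-0.17 to -0.05). The family thus spread from -0.25 to 1.12. The median was 0.20 in the library with the label Prx1Cre;Glut1f/f;Glut3f/+.

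Chaperones and enzymes that fold proteins in the ER formed the other high group. All 19 members of this list were measured, 14 were past 1.5-fold higher in the library labelled DCKO, against 1.42% of all genes, and none was past it lower. Their median log2 ratio was 0.97, which is 1.10 above that of all genes. Summed, the list reached 5570.2, 4904, 5440.5 and 8821 CPM. In the library with the label Prx1Cre;Glut1f/f;Glut3f/+ the median was 0.22, beside -0.10 for all genes, and 3 of the 19 were past 1.5-fold higher, against 0.861% of all genes. No test of the difference between the mutant libraries was possible.

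Hspa5 encodes BiP, the main Hsp70 chaperone of the ER. It stood at 809, 709, 838 and 1410.5 CPM, a ratio of 0.99 (0.98 to 1.01). Hsp90b1 and the calcium-binding lectin chaperone Calr had ratios of 0.75 and 1.02. Cochaperones of BiP were higher as well, with 1.08 (1.02 to 1.14) for Dnajb9, 1.01 (0.97 to 1.06) for Dnajb11 and 0.97 (0.92 to 1.01) for Dnajc3. Sdf2l1, which works in a complex with Dnajb11, stood at 44.8, 22.4, 41.7 and 107 CPM, a ratio of 2.26 (2.17 to 2.35). Hyou1, which exchanges the nucleotide of BiP, had a ratio of 1.20 (1.10 to 1.30). Disulfide isomerases stood less far from the control, with 0.72 (0.69 to 0.76) for Pdia4, 0.62 (0.60 to 0.64) for Pdia6 and 0.38 (0.36 to 0.40) for Pdia3. Manf and Creld2 are small ER proteins that are made in quantity under ER stress. Manf stood at 503, 293, 418 and 802 CPM, a ratio of 1.45 (1.43 to 1.48), and Creld2 at 76.1, 49.5, 86.1 and 193 CPM, a ratio of 1.96 (1.90 to 2.02).

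Removal of misfolded proteins from the ER was represented by 4 genes of the list. Herpud1, which helps to assemble the export machinery, stood at 59.1, 80.3, 129 and 244 CPM, a ratio of 1.60 (1.55 to 1.65). Edem1, Sel1l and Syvn1 act in recognition and ubiquitination of the misfolded chains, and their ratios were 0.53, 0.59 and 0.42. Xbp1, the transcription factor of the ER response that is activated by splicing of its mRNA, had a ratio of 0.17 (0.12 to 0.22), and counts of 3' ends do not tell the spliced from the unspliced form. For Sdf2l1, Creld2 and Manf the E13.5 control lay above the E14.5 control.

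Over single cells, the higher level of ER genes came with a wide spread. For this, each cell with at least 3000 UMIs was thinned to that depth. ATF4 targets gave a median of 4 UMIs per cell in the E14.5 control and 7 in the library labelled DCKO, and the 90th percentiles were 7 and 15. ER folding genes had a 10th percentile of 7 UMIs in both libraries. Their median was 13 in the control and 19 in the library labelled DCKO, and their 90th percentile 22 and 50. The libraries were thus equal at the 10th percentile and differed most at the 90th. In the library with the label Prx1Cre;Glut1f/f;Glut3f/+ these percentiles were 6, 12 and 27.

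**Figure D3:**
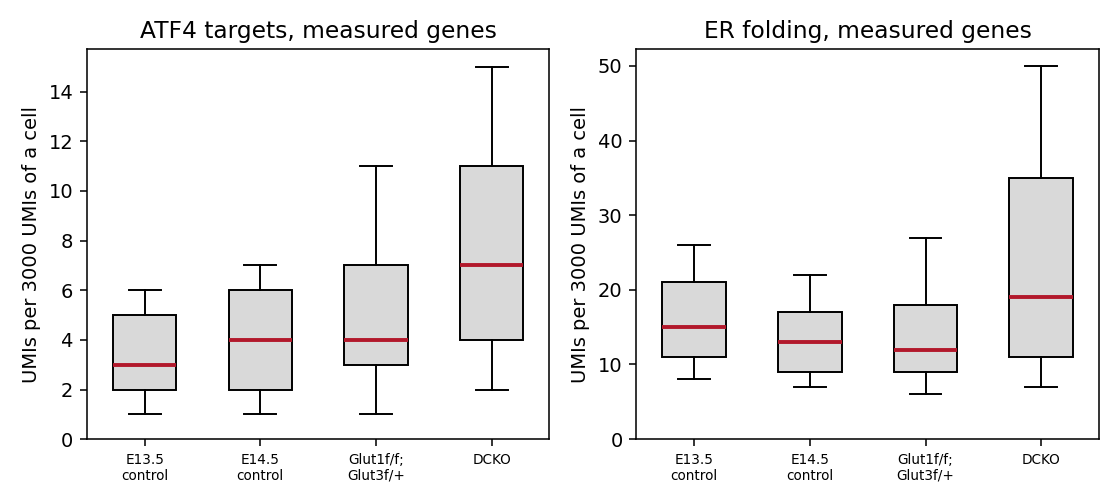
UMIs of ATF4 targets (left) and ER folding genes (right) per cell, each cell thinned to 3000 UMIs, in the 4 libraries. Boxes span the 25th to 75th percentile with the median in red and whiskers from the 10th to the 90th, and for ER folding the upper whisker of the library labelled DCKO reaches 50 UMIs and that of the E14.5 control 22.

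The lists were also set side by side over the thinned cells. Spearman's rho between ATF4 and ER folding UMIs was 0.117 over 2864 cells of the E13.5 control and 0.0873 over 5267 of the E14.5 control. It was 0.273 over 5747 cells with the label Prx1Cre;Glut1f/f;Glut3f/+ and 0.477 over 6827 labelled DCKO. Cells of a library share its preparation and are no replicates, so these values are descriptions. In the library labelled DCKO, the 1640 cells with the most ER folding UMIs had a mean of 12.2 ATF4 target UMIs, against 5.65 in the 1815 cells with the fewest. Slc2a1 and glycolysis ran the other way, with 1.10 against 1.79 UMIs of Slc2a1 and 18.5 against 24.2 of glycolysis genes. Cartilage matrix had 41.3 against 30.6 UMIs, and Ihh, Col10a1 and Pth1r together 0.543 against 0.171. Over all these cells, the rho of ATF4 targets was 0.104 with Slc2a1 and 0.155 with glycolysis genes. In the E14.5 control the means of the cells with the most and the fewest ER folding UMIs were 4.44 and 3.90 for ATF4 targets, 0.232 and 0.244 for Slc2a1, 20.5 and 18.2 for glycolysis. They were 44.7 and 37.2 for cartilage matrix and 0.274 and 0.121 for Ihh, Col10a1 and Pth1r together. Matrix and these 3 genes thus differed in the same direction in both libraries, and glycolysis in opposite directions. At a fixed number of UMIs, a cell with more of some transcripts has fewer of others, and the part of this was not tested.

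Chondrocytes that leave proliferation transcribe Ihh, Pth1r and then Col10a1. A UMI of any of the 3 was found in 34.9% of control cells and 39.6% of cells labelled DCKO. At 3000 UMIs per cell the shares were 14.8% and 19.1%, beside 36.5% in the E13.5 control. Among muscle cells, which should lack these genes, the share was 14.2% in the control at a median of 13551 UMIs and 7.04% in the library labelled DCKO at 10436, beside medians of 8549.5 and 8026 UMIs in the selected cells. The ATF4 and ER differences were present in both kinds of cells. In cells with such a UMI the median log2 ratio was 1.34 for ATF4 targets and 1.01 for ER folding, and in cells without one 1.11 and 0.73. Nupr1 had ratios of 4.79 (4.60 to 4.98) and 3.38 (3.21 to 3.55) in these cells.

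The enzymes of glycolysis differed less. Of 16 listed, 11 were measured, Pgk1 being X-linked and the others outside below the minimum, and their median log2 ratio was 0.17, 0.30 above that of all genes. Aldoa alone was past 1.5-fold higher, against 1.42% of all genes, and none was past it lower. Its ratio was 0.49, within that fold, without cells with a UMI of Ihh, Col10a1 or Pth1r. Aldoa, fructose bisphosphate aldolase, stood at 697, 607, 916 and 930.2 CPM, a ratio of 0.61 (0.60 to 0.63). Gapdh stood at 2035, 1941, 2369 and 2512 CPM, a ratio of 0.37 (0.36 to 0.38). The hexokinases trap glucose in the cell as its phosphate. Hk2 stood at 62.4, 129.9, 225 and 154 CPM, a ratio of 0.24 (0.20 to 0.29), and Hk1 at 20.9, 30.1, 29.0 and 25.7 CPM, a ratio of -0.23 (-0.33 to -0.13). Ldha, Pkm, Tpi1 and Eno1 had ratios of 0.13, -0.02, -0.02 and -0.14. Summed, the list reached 7826, 7246, 8402 and 8605 CPM.

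Genes induced in low oxygen, many of them targets of HIF, gave a median of 0.24 over 16 measured of 29 members, and 0.33 in the library with the label Prx1Cre;Glut1f/f;Glut3f/+. Ero1l and Egln1 were past 1.5-fold higher, against 1.42% of all genes. With TMM factors 4 were, against 2.51%, and without cells with a UMI of Ihh, Col10a1 or Pth1r 1 was, Egln1. Ero1l, an oxidase that forms disulfides in the ER, stood at 41.4, 49.0, 87.4 and 82.7 CPM, a ratio of 0.76 (0.69 to 0.82). Egln1, the prolyl hydroxylase that marks HIF for breakdown, stood at 101, 90.1, 155 and 148 CPM, a ratio of 0.72 (0.67 to 0.77). The collagen prolyl hydroxylase P4ha2 had a ratio of 0.55 (0.52 to 0.59) and the vessel growth factor Vegfa 0.47 (0.41 to 0.53). Bhlhe40, a transcriptional repressor, was the only measured member past 1.5-fold lower, with 13.7, 32.9, 26.9 and 14.4 CPM and a ratio of -1.19 (-1.30 to -1.08). Car9, the carbonic anhydrase of hypoxic cells, was below the minimum, with 5.62, 8.26, 40.3 and 22.5 CPM.

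Other branches of glucose use lay near the median of all genes. The pentose phosphate list had a median of -0.03 over 4 of 6 genes, none past 1.5-fold, and its sign turned with TMM factors (0.14) and without mitochondrial, ribosomal protein and hemoglobin genes in the totals (0.055). Its members Pgd, Pgls, Tkt and Taldo1 had ratios of 0.05, 0.12, -0.11 and -0.36, and Rpia and Rpe, below the minimum, -0.33 and -0.37. Genes that supply sugars and sulfate for proteoglycan chains, 17 measured of 18, had a median of -0.05, which turned to 0.12 with TMM factors and to 0.031 when mitochondrial, ribosomal protein and hemoglobin genes were left out of the totals. None of them was past 1.5-fold. The largest ratio in size was that of Gfpt2, an entry enzyme of the hexosamine pathway, with 54.9, 86.1, 73.8 and 66.5 CPM and a ratio of -0.37 (-0.43 to -0.31). Uxs1, which makes UDP-xylose, and the chondroitin chain enzymes Chsy1 and Csgalnact1 had ratios of -0.30, -0.25 and -0.23.

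**Figure D4:**
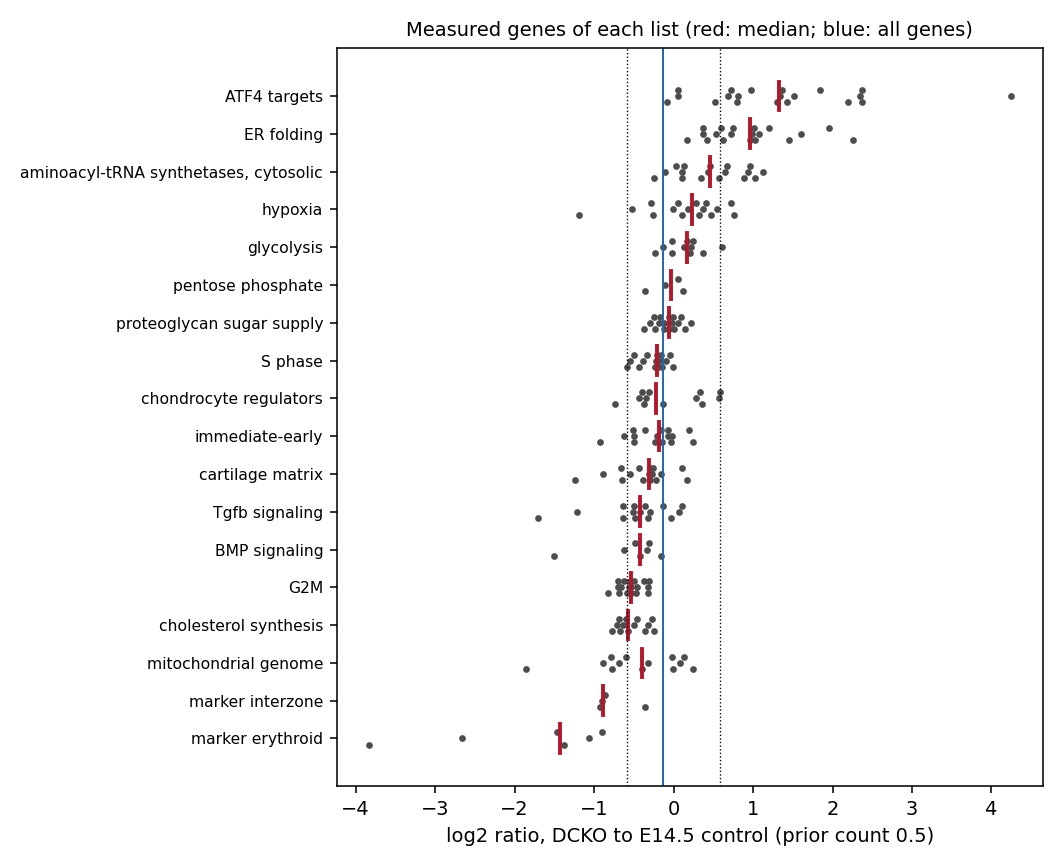
Log2 ratio of the library labelled DCKO to the E14.5 control (horizontal) for the measured genes of 18 lists (points), with list medians in red, the median of all measured genes, -0.13, in blue and 1.5-fold dotted. ATF4 targets and ER folding lie to the right, G2M, cholesterol synthesis, interzone and erythroid genes to the left, and the medians of pentose phosphate and proteoglycan sugar supply turn sign with TMM factors.

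Of the genes that selected the cells, Col2a1 stood at 3291, 6074, 5864 and 5158, Matn1 at 805, 1925, 1632 and 1729.7 and Acan at 430.1, 909, 991 and 937 CPM. Their levels are a description only, and their median ratio of -0.15 became 0.017 with TMM factors. Other cartilage matrix genes, 16 measured of 17, had a median of -0.31, -0.17 from that of all genes. None was past 1.5-fold higher and 4 were past it lower, against 4.55% of all genes. With TMM factors 2 were past it lower, Fmod and Matn3, against 1.65%. Fmod, the small proteoglycan fibromodulin, stood at 8.18, 29.3, 22.9 and 12.4 CPM, a ratio of -1.24 (-1.37 to -1.12). Matn3, an adaptor of collagen fibrils, stood at 60.0, 133, 89.0 and 71.5 CPM, a ratio of -0.89 (-0.95 to -0.84). Cnmd, chondromodulin, which keeps vessels out of cartilage, stood at 279.6, 705, 528 and 447 CPM, a ratio of -0.66 (-0.68 to -0.64), and the small proteoglycan Epyc at 66.6, 230.2, 189.7 and 146 CPM, a ratio of -0.65 (-0.69 to -0.61). The fibril collagens Col9a1, Col11a1 and Col11a2 had ratios of -0.15, -0.27 and -0.22. Comp and Matn4 were the members with ratios above 0, at 0.17 (0.13 to 0.20) and 0.10 (0.09 to 0.12). Ucma, below the minimum, stood at 1.05, 22.9, 9.38 and 5.71 CPM.

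Among regulators of chondrocytes, 12 of 19 genes were measured, with a median of -0.22. Sox9, the factor on which the chondrocyte program depends, was the only one past 1.5-fold lower, against 4.55% of all genes, and with TMM factors its ratio of -0.56 lay within that fold. It stood at 526, 515, 479 and 310.2 CPM, a ratio of -0.73 (-0.76 to -0.71), so that the other 3 libraries lay above the library labelled DCKO. Its partners Sox5 and Sox6 had ratios of -0.35 (-0.38 to -0.31) and -0.31 (-0.35 to -0.27), and Foxa3, a factor of later maturation, -0.44 (-0.54 to -0.34). Ihh, the hedgehog signal of prehypertrophic cells, stood at 152, 20.4, 31.1 and 30.4 CPM, a ratio of 0.58 (0.47 to 0.69). Pth1r, the receptor of the parathyroid hormone-related peptide that delays maturation, stood at 161, 55.8, 78.1 and 83.2 CPM, a ratio of 0.58 (0.51 to 0.64). Both were just under 1.5-fold higher and far below the E13.5 control. With TMM factors both were past that fold, Ihh and Pth1r each at 0.75. Of the 12 regulators 2 were then past it higher, against 2.51% of all genes, and none lower, against 1.65%. The hedgehog target Ptch1 had a ratio of -0.37 (-0.42 to -0.32).

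Of the hypertrophy genes only Panx3, a channel of hypertrophic chondrocytes, was measured, with a ratio of 0.19 (0.09 to 0.30). This turned to -0.11 without cells that held a UMI of Gdf5 or 5 or more of Col1a1. It was -0.12 in cells without a UMI of Ihh, Col10a1 or Pth1r and 0.03 in cells with one. Col10a1, the collagen of hypertrophic cartilage, stood at 6.46, 0.590, 17.5 and 9.97 CPM, from 32 UMIs in the E14.5 control and 672 in the library labelled DCKO. Ibsp, a bone matrix protein that late hypertrophic cells also make, stood at 1.83, 0.166, 28.9 and 2.52 CPM. Spp1, osteopontin, went the other way, with 12.7, 13.4, 21.3 and 5.05 CPM. Mmp13 had no UMI in the control and 1 in the library labelled DCKO. A UMI of Col10a1 was present in 0.257% of control cells and 1.29% of cells labelled DCKO.

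Genes of mitosis were lower, and those of DNA synthesis lay near the median of all genes. Of 18 genes of G2 and mitosis, all measured, 7 were past 1.5-fold lower, against 4.55% of all genes, all had ratios below 0, and the median was -0.54, -0.41 from that of all genes. With TMM factors Nusap1 alone stayed past 1.5-fold, against 1.65% of all genes, so that these calls depend on the scaling. Nusap1, a protein of the spindle, stood at 86.1, 96.9, 76.4 and 54.8 CPM, a ratio of -0.82 (-0.88 to -0.76). Top2a, which untangles chromosomes, stood at 301, 275, 219 and 172 CPM, a ratio of -0.68 (-0.72 to -0.65), and the mitotic kinases Plk1 and Bub1 had ratios of -0.70 (-0.80 to -0.61) and -0.70 (-0.81 to -0.59). The S phase list, 16 measured of 19, had a median of -0.21, -0.08 from that of all genes. Only Rrm2, a subunit of ribonucleotide reductase, was past 1.5-fold lower, against 4.55% of all genes, with 77.8, 64.6, 42.4 and 42.9 CPM and a ratio of -0.59 (-0.66 to -0.52), which was -0.42 with TMM factors. The replication factors Pcna and Mcm5 had ratios of 0.00 and -0.15. Phases were not called for single cells, and the G2M list also had a median of -0.20 in cells with Xist against cells with Y-linked UMIs of the E13.5 control.

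The inhibitors of cyclin-dependent kinases differed among themselves. Cdkn1a, the p21 gene, stood at 41.0, 54.0, 102 and 110.1 CPM, a ratio of 1.03 (0.97 to 1.09). Cdkn2d stood at 49.0, 67.4, 44.6 and 39.4 CPM, a ratio of -0.78 (-0.85 to -0.70). Cdkn1c, the p57 gene, which chondrocytes transcribe as they stop dividing, stood at 4947, 4501, 3733 and 3643 CPM, a ratio of -0.31 (-0.31 to -0.30), and Cdkn1b, p27, had -0.27 (-0.38 to -0.17). Cdkn2c was below the minimum, with a ratio of -0.88 (-1.08 to -0.67). Cdkn1a is also a target of p53. The list of other p53 targets had 4 measured of 13, none past 1.5-fold, with a median of 0.16. They were Mdm2, Bax, Phlda3 and Plk2, at -0.17, 0.26, 0.06 and 0.29.

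Signaling genes were lower in part. Id1, Id2 and Id3, inhibitors of basic helix-loop-helix factors, are direct targets of Bmp signaling. Id1 stood at 683, 461, 390.2 and 163 CPM, a ratio of -1.499 (-1.53 to -1.47). Id3 stood at 1077, 893, 858 and 578 CPM, a ratio of -0.63 (-0.65 to -0.61), and Id2 had a ratio of -0.49 (-0.53 to -0.45). The Bmp list, ligands and receptors included, had a median of -0.43 over 7 measured of 14 genes, with Id1 and Id3 past 1.5-fold lower, against 4.55% of all genes, and none past it higher. With TMM factors Id1 alone was past 1.5-fold lower, against 1.65% of all genes. The median was -0.03 in the library with the label Prx1Cre;Glut1f/f;Glut3f/+. The ligands Bmp2 and Gdf10 had ratios of -0.34 (-0.43 to -0.24) and -0.43 (-0.48 to -0.38), and the receptors Bmpr1a and Bmpr2 -0.16 and -0.30. The inhibitory Smad6 was below the minimum, with 8.22 CPM in the control and 4.29 CPM in the library labelled DCKO.

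Tgfβ signaling, as a list, had a median of -0.42 over 15 measured of 23 genes, with 4 past 1.5-fold lower and none higher, against 4.55% of all genes past it downward. The median was -0.12 in the library with the label Prx1Cre;Glut1f/f;Glut3f/+. The 4 lower genes are all induced by Tgfβ. Ccn2, connective tissue growth factor, stood at 59.0, 61.3, 29.6 and 18.7 CPM, a ratio of -1.71 (-1.80 to -1.61). Smad7, which blocks the receptor, stood at 215, 194, 154 and 83.8 CPM, a ratio of -1.21 (-1.26 to -1.16). Skil and Pmepa1, which also restrain the pathway, had ratios of -0.64 (-0.70 to -0.58) and -0.64 (-0.68 to -0.59), and both were within 1.5-fold with TMM factors. The ligand Tgfb3 had a ratio of -0.48 (-0.59 to -0.37), Tgfb2 -0.03 (-0.11 to 0.06) and the receptor Tgfbr1 0.07 (0.00 to 0.14).

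Several of the lowest genes belong to other signals. Hes1, a repressor induced by Notch, stood at 188, 276, 347 and 107 CPM, a ratio of -1.36 (-1.40 to -1.32), and the library with the label Prx1Cre;Glut1f/f;Glut3f/+ had a ratio of 0.33 to the same control. Gadd45b and Gadd45g respond to stress and cytokines and bind the kinase MEKK4. Gadd45b stood at 252, 293, 176 and 87.0 CPM, a ratio of -1.75 (-1.79 to -1.71), and Gadd45g at 135, 139.96, 89.0 and 44.8 CPM, a ratio of -1.64 (-1.71 to -1.58). Socs3, which stops cytokine signals through STAT, stood at 89.3, 105, 64.4 and 45.7 CPM, a ratio of -1.20 (-1.26 to -1.13). Gas1, a hedgehog coreceptor, stood at 250.4, 128, 105 and 54.981 CPM, a ratio of -1.22 (-1.28 to -1.16). Scrg1, a small secreted protein of cartilage, stood at 53.7, 131, 100.2 and 55.9 CPM, a ratio of -1.23 (-1.29 to -1.18). The study's list for interzone cells at E13.5 has Gas1, Scrg1 and Socs3 as enriched there, and Hes1 and Gadd45g as lower. Interzone markers, given below, had a median of -0.88 in the selected cells, and their part in these ratios was not tested. C1qtnf3 had a ratio of -2.72 (-2.79 to -2.64). Chosen after their values were seen, the long RNA Snhg3 had a ratio of -2.13 (-2.24 to -2.01), the metallothionein Mt1 2.47 (2.36 to 2.58) and the slow muscle troponin Tnni1 2.40 (2.27 to 2.53). On the higher side, Serpinf1, a secreted protein that restrains vessel growth, was the only 1 of the 12 highest genes at a mean CPM of at least 50 that belongs to no list, with 67.5, 53.7, 88.2 and 139 CPM and a ratio of 1.37 (1.31 to 1.43).

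Immediate-early genes, which answer signals and also tissue dissociation within minutes, had a median of -0.18, near that of all genes, over 16 of 16. Myc and Nr4a1 were past 1.5-fold lower, against 4.55% of all genes, with ratios of -0.93 (-1.02 to -0.84) and -0.63 (-0.67 to -0.58), the last being -0.46 with TMM factors. Fos stood at 725, 1104, 1180.3 and 1082 CPM, a ratio of -0.03 (-0.04 to -0.01), and Egr1 had 0.19 (0.17 to 0.21). Dusp1 and Zfp36, which damp such signals, had ratios of -0.51 and -0.50.

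Cholesterol synthesis was lower as a group. Of 17 genes 13 were measured, all had ratios below 0, 6 were past 1.5-fold lower, against 4.55% of all genes, and the median was -0.57, -0.44 from that of all genes. With TMM factors Msmo1 alone stayed past 1.5-fold, against 1.65% of all genes. Msmo1, which removes methyl groups from the sterol ring, stood at 95.5, 73.3, 58.4 and 42.9 CPM, a ratio of -0.77 (-0.84 to -0.70). Idi1, of the isoprenoid steps, stood at 84.6, 74.1, 52.953 and 45.1 CPM, a ratio of -0.72 (-0.78 to -0.65), and Cyp51, lanosterol demethylase, at 102, 109, 70.9 and 67.7 CPM, a ratio of -0.68 (-0.74 to -0.63). Insig1, the sterol sensor of the ER, had a ratio of -0.67 (-0.76 to -0.59). The median was -0.35 in the library with the label Prx1Cre;Glut1f/f;Glut3f/+. Within the E13.5 control, cells with Xist had a median of -0.24 for these genes against cells with Y-linked UMIs, and the part of sex in the difference was not tested.

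The 13 genes of the mitochondrial genome had a median of -0.40, with 6 past 1.5-fold lower, against 4.55% of the autosomal genes, and 4 with TMM factors, against 1.65%. Of the complex I subunits, mt-Nd6, mt-Nd3, mt-Nd1 and mt-Nd5 had ratios of -1.85 (-1.96 to -1.75), -0.88 (-0.91 to -0.85), -0.79 (-0.80 to -0.77) and -0.78 (-0.81 to -0.75). The cytochrome oxidase subunits mt-Co1, mt-Co2 and mt-Co3 had 0.24, -0.01 and 0.13. The other complex I subunits mt-Nd2, mt-Nd4l and mt-Nd4 had -0.68, -0.40 and -0.32, the cytochrome b gene mt-Cytb 0.00, and the ATP synthase genes mt-Atp6 and mt-Atp8 0.08 and -0.60. The nuclear genes of the respiratory chain and ATP synthase, 77 measured of 82, had a median of -0.01, which became 0.16 with TMM factors and 0.078 without mitochondrial, ribosomal protein and hemoglobin genes in the totals. Only Cox4i2, the oxidase subunit of low oxygen, was past 1.5-fold, against 1.42% of all genes past it higher, with 77.1, 55.8, 102 and 92.1 CPM and a ratio of 0.72 (0.66 to 0.79). That of Cox4i2 was 0.56, within the fold, with cells thinned to 3000 UMIs. Cox6b2, Sdhd and Uqcrq had ratios of -0.53, -0.42 and 0.38. Ribosomal protein genes had a median of 0.22 over 77 genes, with 0.37 for Rpl22l1 and -0.40 for Rpl39l.

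Cells with Xist and no Y-linked UMI were compared with cells with Y-linked UMIs and no Xist within the E13.5 control. These were 2026 and 468 of the selected cells. The 168 cells with both and the 246 with neither were left out. Over the same 5344 genes, 33 were past 1.5-fold higher and 3 lower in the cells with Xist, and the median log2 ratio was -0.02. It was -0.04 for ATF4 targets, 0.06 for ER folding, -0.04 for glycolysis and 0.04 for cartilage matrix. These cells come from another age and from embryos whose number is not stated. The split carries differences between embryos besides those of sex, so it does not give the size of sex differences and does not separate sex from genotype at E14.5.

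Markers of other cell types were summed in the selected cells. Erythroid genes reached 1749.9, 1428, 1442 and 535 CPM, and 6 of 8 were measured, all past 1.5-fold lower in the library labelled DCKO, against 4.55% of all genes. The most abundant in the E14.5 libraries was the adult globin Hbb-bs, with 191, 564, 570.2 and 302 CPM. The embryonic globin Hbb-y stood at 1087, 317, 357 and 22.2 CPM, a ratio of -3.83 (-3.91 to -3.76), Hba-x at 119.9, 37.2, 46.8 and 5.89 CPM, and Hba-a1 and Hba-a2 had ratios of -1.47 (-1.52 to -1.42) and -1.38 (-1.44 to -1.33). Cells with at least 10 hemoglobin UMIs, 14 in the control and 10 in the library labelled DCKO, held 95.6% and 96.1% of these UMIs. No hemoglobin UMI was found in 55.6% of control cells and 82.9% of cells labelled DCKO. The erythroid median in cells with Xist against cells with Y-linked UMIs of the E13.5 control was 4.42. The part of red cell RNA in the other results was not tested.

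Interzone markers, which chondrocytes near the joint also transcribe, summed to 817, 377, 396 and 225 CPM. Of 5 genes 4 were measured and 3 were past 1.5-fold lower, against 4.55% of all genes, Osr2 at -0.93 (-1.02 to -0.83), Sfrp2 at -0.90 (-0.95 to -0.85) and Creb5 at -0.86 (-0.95 to -0.78), with a median of -0.88. Sfrp2 was the most abundant, at 398, 171, 181 and 91.5 CPM, and Tgfbi had a ratio of -0.36 (-0.42 to -0.30). Over 11 alternatives the ratio of Sfrp2 ran from -1.03 to -0.31, so that its place past 1.5-fold depended on the processing. The list median ran from -1.03 to -0.54 over 13 alternatives. Within the E13.5 control the median of these genes was 0.40 in cells with Xist against cells with Y-linked UMIs. Fibroblast genes summed to 891, 1718, 1434 and 1269 CPM. Of 5 measured 1, Col1a1, was past 1.5-fold lower, at -0.67 (-0.70 to -0.64), against 4.55% of all genes. With TMM factors none was, against 1.65%. Col1a2 was the most abundant of them in the control, with 232, 504, 437 and 368 CPM. Tendon genes summed to 45.5, 50.9, 41.7 and 26.4 CPM, with Fmod, shared with the matrix list, as the most abundant in the control and Scx at 14.3 CPM in the control and 10.3 CPM in the library labelled DCKO. Osteogenic genes summed to 129.8, 29.5, 66.5 and 37.5 CPM. Runx2 was the most abundant in the E14.5 control and the only measured one, with a ratio of 0.28 (0.17 to 0.39), and Sp7, the factor of osteoblasts, stood at 4.41 and 4.85 CPM. In cells without a UMI of Ihh, Col10a1 or Pth1r the ratio of Runx2 was 0.62, past 1.5-fold, as were 61 of 5344 genes upward. It was -0.02 in cells with such a UMI.

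Muscle genes, none measured, summed to 145, 29.1, 42.1 and 7.94 CPM, all 8 being past 1.5-fold lower in the library labelled DCKO, against 16.5% of all genes of at least 10 UMIs over both libraries. Mylpf was the most abundant, at 7.80 and 3.95 CPM, and Myf5 had 14 UMIs in the control and 1 in the library labelled DCKO. Endothelial genes summed to 31.2, 21.0, 22.5 and 23.1 CPM, none of them measured. Egfl7 was the most abundant, at 18.5 and 16.4 CPM, and the other 5 of the 6 were past 1.5-fold higher in the library labelled DCKO, against 7.15% of all genes of at least 10 UMIs, Cdh5 from 20 to 74 UMIs and Esam from 27 to 115, a direction that turned for Cdh5, Kdr and Cldn5 with cells thinned to 3000 UMIs. Macrophage genes summed to 8.95, 10.8, 5.34 and 7.06 CPM, led by C1qc at 3.48 and 3.24 CPM. Of their 6 genes, none measured, 3 were past 1.5-fold lower, against 16.5% of all genes of at least 10 UMIs, C1qa at -1.63, C1qb at -1.13 and Fcer1g at -1.50, and all 3 turned in direction without the 10% of cells with the most UMIs. Csf1r stood at 0.55. Glial and neuronal genes summed to 38.3, 35.4, 43.5 and 43.0 CPM, led in the control by Sox10 at 18.5 and 17.2 CPM, with Tubb3 near 0. Epidermal genes summed to 5.83, 7.10, 5.43 and 4.73 CPM, led by Epcam at 5.83 and 3.78 CPM, with Cdh1 at 0 UMIs in both libraries and Krt5 at 1 and 0. The part of these cells or of free RNA in the results was not tested.

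The same genes were read in cells outside the selection. Mesenchyme, selected by 10 or more UMIs of Col1a1, Col1a2 and Col3a1, held 2238 control cells and 1985 cells labelled DCKO, and Prx1Cre also recombines in it. Slc2a1 stood there at 31.3 and 132 CPM, a ratio of 2.07 (1.93 to 2.22), and Txnip at 29.6 and 13.7 CPM, a ratio of -1.12 (-1.38 to -0.86). These genes stood on the same side of the control as in chondrocytes. The median of ATF4 targets was 0.28 in mesenchyme, with 5 of 20 past 1.5-fold higher and 1 lower, and that of ER folding -0.05. Over all 5344 genes the median there was -0.06, with 50 past 1.5-fold higher and 87 lower. Glycolysis had a median of -0.25. Asns had a ratio of 0.61 (0.43 to 0.79), Sdf2l1 0.21 (-0.03 to 0.46) and Id1 -0.67 (-0.76 to -0.58). Nupr1 stood at 55.7 CPM in control mesenchyme and 25.4 CPM in mesenchyme labelled DCKO, a ratio of -1.13 (-1.32 to -0.94). Other markers differed between the 2 mesenchyme samples too. The median was -1.09 for interzone genes, with 3 of 4 past 1.5-fold lower, and -1.32 for erythroid genes, all 6 past it. It was 0.30 for cartilage matrix, with 6 of 16 past 1.5-fold higher and 2 lower, and Runx2 had a ratio of 0.65 (0.47 to 0.82). The part of such differences in the cells, and the difference between the cell classes, were not tested.

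Muscle, endothelial and macrophage cells, which do not derive from the limb bud mesenchyme where Prx1Cre acts, were few. Muscle held 169 and 71 cells in the control and the library labelled DCKO, endothelium 28 and 68, and macrophages 50 and 54. The ratio of Slc2a1 was 0.57 (-0.20 to 1.29) in muscle, 0.28 (-0.69 to 1.37) in endothelium and 2.42 (0.97 to 4.18) in macrophages, the last from 5 and 21 UMIs. The medians of ATF4 targets were 0.18, -0.03 and 0.02 in that order, and those of ER folding 0.11, 0.30 and 0.20. Single genes scattered widely at these numbers of cells. In endothelium 8 of 20 ATF4 targets were past 1.5-fold higher and 4 lower, beside 1290 and 754 of all 5344 genes.

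Promoter sequences were searched for short motifs, in the 250 bases before each gene's start, on both strands, for 27025 genes of RefSeq (GRCm38.p6). List members whose symbol had no promoter window were left out. The ATF4, synthetase and ER folding lists, of 31, 18 and 19 genes, thus entered with fewer. The composite element of ATF4 and C/EBP factors, with the letters TGATGNAA, was in 3.91% of all genes. It was in 7 of 26 ATF4 targets, in 3 of 11 synthetases and in 1 of 17 ER folding genes. The core of the hypoxia response element, ACGTG, was in 18.5% of all genes, in 16 of 25 hypoxia genes and in 7 of 16 glycolysis genes, and also in 7 of 26 ATF4 targets, 4 of 11 synthetases and 6 of 17 ER folding genes. The 2 further motifs were searched for after the results had been seen. The element of ER stress genes, CCAAT and CCACG 9 bases apart, was in 35 genes of all (0.130%) and in 8 of 17 ER folding genes. These were Hspa5, Hsp90b1, Calr, Canx, Pdia6, Dnajc3, Creld2 and Syvn1. The carbohydrate response element, CACGNG 5 bases ahead of another CACGNG, was in 14 genes (0.0518%), Txnip among them and Arrdc4 not. The letters ACGTG can share bases with each of the other motifs. A match describes the sequence and shows no binding.

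The 250 bases upstream of 5 of these genes are shown, Asns and Nupr1 for the ATF4 targets, Hspa5 and Creld2 for the ER genes and Txnip for the glucose-responsive genes. They read 5' to 3' on the strand of the gene, with the motif in capitals. Asns lies at chr6:7693210-7693459 on the minus strand and Nupr1 at chr7:126625471-126625720 on the minus strand. Hspa5 lies at chr2:34771840-34772089, Creld2 at chr15:88819396-88819645 and Txnip at chr3:96557707-96557956, each on the plus strand. RefSeq starts were used, and that of Nupr1 lies inside the GENCODE span given for the gene. In Nupr1 and Creld2 the motif stands on the opposite strand and is read in reverse complement.
Asns: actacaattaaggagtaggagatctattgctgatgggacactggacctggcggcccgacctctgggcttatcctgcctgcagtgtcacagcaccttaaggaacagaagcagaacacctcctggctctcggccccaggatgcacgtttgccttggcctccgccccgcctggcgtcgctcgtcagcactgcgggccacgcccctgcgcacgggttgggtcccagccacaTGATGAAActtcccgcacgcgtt
Nupr1: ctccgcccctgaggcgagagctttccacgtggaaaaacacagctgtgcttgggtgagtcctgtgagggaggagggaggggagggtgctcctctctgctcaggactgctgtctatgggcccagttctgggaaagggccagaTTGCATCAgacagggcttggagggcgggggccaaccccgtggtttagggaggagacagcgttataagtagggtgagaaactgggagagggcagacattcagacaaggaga
Hspa5: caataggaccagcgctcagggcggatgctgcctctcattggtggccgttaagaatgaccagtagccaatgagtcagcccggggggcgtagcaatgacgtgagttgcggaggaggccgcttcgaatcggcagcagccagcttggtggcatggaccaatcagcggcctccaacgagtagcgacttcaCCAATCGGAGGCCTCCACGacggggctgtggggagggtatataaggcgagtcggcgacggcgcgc
Creld2: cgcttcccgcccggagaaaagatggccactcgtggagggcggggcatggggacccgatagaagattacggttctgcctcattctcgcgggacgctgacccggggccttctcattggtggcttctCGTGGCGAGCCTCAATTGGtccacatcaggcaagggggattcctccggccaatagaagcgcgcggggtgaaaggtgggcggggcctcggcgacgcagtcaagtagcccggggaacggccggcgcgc
Txnip: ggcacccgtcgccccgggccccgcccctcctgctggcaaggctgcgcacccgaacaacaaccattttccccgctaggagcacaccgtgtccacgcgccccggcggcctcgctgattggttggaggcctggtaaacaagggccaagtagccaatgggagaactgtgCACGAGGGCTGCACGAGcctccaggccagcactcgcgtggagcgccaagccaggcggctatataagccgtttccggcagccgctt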

How the data were processed

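The deposited values are raw UMI counts that the authors made with Cell Ranger (6.1.2 in the file headers). The submitters' notes also name Seurat 3 and mm10. Genes were matched to GENCODE M21, and for 38 symbols held by 2 or more IDs, Aldoa and Ddit3 among them, the ID with the most UMIs was used. Barcodes had to show 200 to 6000 genes and no more than 10% mitochondrial UMIs, and doublets were kept. UMIs were summed over selected cells, scaled to CPM, and compared by exact conditional intervals. List medians used a prior count of 0.5. Members and lists were chosen with earlier results of these data known. The genes named are Slc2a1, Slc2a3, the 3 selection markers, the 12 highest and 12 lowest ratios at a mean CPM of at least 50, the 4 measured members of each list farthest from 0, and all members of lists of up to 6, not all of which are printed. Other genes were singled out after their values were seen. Python 3.11.15, numpy 2.4.6, scipy 1.17.1, pandas 2.3.3, matplotlib 3.10.9, R 4.3.3 and edgeR 4.0.16 were used.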

Additional observations from a re-analysis of the deposited data

Results flagged for a closer look

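Nupr1 stood on opposite sides of the control in 2 cell classes. In chondrocytes its log2 ratio of the library labelled DCKO to the E14.5 control was 4.25, and in mesenchyme it was -1.13, with 55.7 CPM in the control and 25.4 CPM in the cells labelled DCKO. Markers of other cells differed between these mesenchyme samples as well, with medians of -1.09 for interzone and -1.32 for erythroid genes, and their part was not tested. With 1 library per genotype, the difference between the classes was not tested.

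Xist lies outside the autosomal comparison and separated the libraries, with 0.184 CPM in the E14.5 control and 849.7 CPM in the library labelled DCKO. Sex and genotype cannot be told apart.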

How the results depend on the processing

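Of 349 list medians recomputed under an alternative, 186 stayed within their counting error, 159 moved past it, and 4 whose counting error lay on 1 side of 0 changed sign. Medians nearer to 0 also changed sign, that of pentose phosphate to 0.14 and that of the nuclear respiratory chain to 0.16 with TMM factors. Of 86 named genes past 1.5-fold, 77 kept their direction and 53 their side of the fold under every alternative. The cause of the changes below was not tested, apart from the counts that a stricter or looser fold or minimum gives by its construction.

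The count of higher genes was 134 with TMM factors, 125 without mitochondrial, ribosomal protein and hemoglobin genes in the totals, 49 at a mean CPM of at least 50, 1157 with no minimum beyond 10 UMIs and 33 at 2-fold. The count of lower genes was 88 with TMM factors, 106 at a mean CPM of at least 50, 2671 with no minimum beyond 10 UMIs and 33 at 2-fold.

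With TMM factors the medians were 0.34 for glycolysis, 1.49 for ATF4 targets, 1.14 for ER folding, -0.13 for cartilage matrix and, with changed sign, 0.12 for proteoglycan sugar supply and 0.017 for the selection markers. With totals lacking mitochondrial, ribosomal protein and hemoglobin genes they were 0.26, 1.44, 1.05 and -0.23 for the first 4 lists, and proteoglycan sugar supply changed sign to 0.031. As means over cells, ATF4 targets had 1.17, ER folding 0.85 and cartilage matrix -0.34.

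With at least 10 UMIs of Col2a1 and 5 of Matn1 and Acan, ER folding had 1.02 and cartilage matrix -0.33, and Cdh5 at -0.39 and Cldn5 at -0.073 changed sign. With 3 UMIs of Col2a1 alone, ER folding had 0.91 and cartilage matrix -0.29. With cells thinned to 3000 UMIs, ATF4 targets had 0.97 and cartilage matrix -0.33, and genes of few UMIs changed sign, Tnmd at 1.20, Mkx at 0.11, Kera at 0.36, Cdh5 at -3.19, Kdr at -0.12, Cldn5 at -0.21, C1qa at 0.62 and C1qb at 0.47. Without the 10% of cells with the most UMIs, glycolysis had 0.11 and ATF4 targets 1.16, and Tnmd at 0.055, Kera at 0.34, C1qa at 3.51, C1qb at 2.11 and Fcer1g at 1.32 changed sign.

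Without cells with a UMI of Ihh, Col10a1 or Pth1r, ATF4 targets had 1.05, ER folding 0.80 and cartilage matrix -0.27. The first of these medians is over 19 genes and the second over 18, while the 1.11 and 0.73 given above for such cells are over 20 and 19. Without cells with a UMI of Gdf5 or 5 or more of Col1a1, glycolysis had 0.23, ER folding 1.05, cartilage matrix -0.42 and hypertrophy, with changed sign, -0.11. Without cells with a hemoglobin UMI, an alternative chosen after seeing the data, glycolysis had 0.12, cartilage matrix -0.32 and Kera, with changed sign, 0.35. ATF4 targets had 1.14 at a mean CPM of at least 50 and 1.47 with no minimum beyond 10 UMIs.

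Genes with few UMIs limit what can be read from markers of rare cells. A single library per genotype gives no spread between embryos, and sex differed with genotype.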
